A study of Mus musculus with 6 samples.

Results

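The constitutive proteasome subunit genes were followed in mouse bone marrow LSK cells after knockdown of Cxxc5. Members were the protein-coding genes whose symbol is Psma, Psmb, Psmc or Psmd followed by a number, without the immunoproteasome genes Psmb8, Psmb9 and Psmb10. This gave 36 genes of the 49671 gene identifiers in the count table, 16 of the core particle and 20 of the regulatory cap. Psmc3ip only shares the letters of such a symbol and encodes no proteasome subunit; it was left out, and its log2 fold change in replicates 3 and 4 was 0.06 (edgeR adjusted p = 0.66). In 6 libraries, 3 per group, RNA was sequenced from BALB/c marrow enriched for stem and progenitor cells. The shCxxc5 cells carried a retroviral hairpin against Cxxc5 and the shCtrl cells a retroviral hairpin with no target in the mouse. LSK cells lack markers of mature lineages and carry Sca-1 and Kit on their surface; blood stem cells and early progenitors are among them. Infected, GFP-positive LSK cells of several animals were sorted and pooled for each RNA sample, so a library is not 1 animal. The labels give no age, and they do not say whether the replicate numbers 2, 3 and 4, which both groups share, stand for separate infections. The p-values below therefore cover only how far these libraries vary, and part of that may be technical.

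The proteasome is the protease that degrades proteins tagged with ubiquitin. Its barrel-shaped core is built of alpha rings, which gate the entrance, and beta rings, some of whose subunits carry the active sites. The cap binds the substrate, removes its ubiquitin with a lid deubiquitinase and unfolds it with a ring of ATPases. Blood stem cells are known to depend on controlled protein synthesis and degradation, and inhibition of the proteasome induces the subunit genes together through the transcription factor NRF1, encoded by Nfe2l1.

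Library totals were between 15002414 and 27754019 counts. Levels are given as CPM, the counts per library size after TMM scaling, always for replicates 2, 3 and 4 in this order. Cxxc5, which encodes a CXXC zinc finger protein, had 6.73, 17.4 and 17.9 CPM in shCxxc5, against 82.1, 59.8 and 57.8 CPM in shCtrl. Its groups did not overlap (exact permutation test, two-sided p = 0.1, the smallest that 3 against 3 can give), and 8.30%, 29.2% and 31.1% of the control level were left within replicates 2, 3 and 4. In both groups the library numbered 2 differed from the rest: the first principal component, with 67.6% of the variance, separated the pair from the other 4. Biological variation between libraries (edgeR's coefficient) was 0.312 with all 6 and 0.0294 with replicates 3 and 4. Each comparison is therefore given over all 6 libraries and again over replicates 3 and 4. The LSK marker Kit had 99.5, 110 and 99.6 CPM in shCxxc5, against 82.2, 106 and 97.7 CPM in shCtrl. Ly6a, which encodes Sca-1, had 33.1, 702 and 710 CPM in shCxxc5, against 46.4, 803 and 785 CPM in shCtrl, so it was low in both replicate 2 libraries. The listed LSK markers did not move as 1 there. Of 10, edgeR called 4 higher and 4 lower in replicate 2 than in replicates 3 and 4, where 17.7% of all genes were higher and 18.7% lower.

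Of the 36 members, 35 were measured. Psmb11, the beta subunit of thymic epithelium, had a count of 0 in all 6 libraries. Psma8, the alpha subunit of male germ cells, was the lowest of the measured members per kilobase of its principal transcript, at 5.15 CPM per kilobase (median of the 6 libraries). Highest on this scale were Psma7 at 334, Psma1 at 270 and Psmb6 at 265 CPM per kilobase. The members together took 0.535%, 0.594% and 0.599% of the counts in shCxxc5, against 0.471%, 0.551% and 0.556% in shCtrl. Summed core CPM was 2081, 2612 and 2639 in shCxxc5, against 1735, 2430 and 2482 in shCtrl. Summed cap CPM was 3068, 3458 and 3474 in shCxxc5, against 2897, 3102 and 3117 in shCtrl. Both sums were higher in the shCxxc5 library at each replicate number, and both were lowest in the replicate 2 libraries within each group. In bulk RNA, fewer cells of a type and less RNA per cell cannot be told apart.

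Within replicate numbers, core and cap moved by different amounts in replicate 2 and in the other replicates. The median log2 ratio of shCxxc5 over shCtrl for the core was 0.20, 0.11 and 0.07 in replicates 2, 3 and 4. For the cap the median log2 ratio was 0.07, 0.18 and 0.18. All genes tested had medians of -0.04, -0.01 and -0.005. The core median was thus above the cap median in replicate 2 and below it in replicates 3 and 4, with differences of 0.13, -0.07 and -0.11. Each of these ratios sets 1 library against 1, and the replicate 2 libraries also differed widely in markers of other cells. Summed marker CPM in shCxxc5 against shCtrl replicate 2 was 1616 against 6699 for megakaryocytes and 1416 against 243 for mast cells and basophils. For granulocytes and monocytes it was 5741 against 787, with 7 of 8 markers higher in shCxxc5 and Csf1r lower (25.9 against 47.2 CPM). The part of these markers in the replicate 2 ratios was not tested. In replicate 2, 28 of 35 members had a ratio above 0, where 46.6% of all genes did, and these were 15 of 15 core and 13 of 20 cap members. Replicate 3 had 32 of 35 above 0 (14 core and 18 cap; all genes 47.4%), and replicate 4 had 29 of 35 (11 core and 18 cap; all genes 49.2%). The lid had medians of 0.00, 0.21 and 0.23, the ATPase ring 0.08, 0.18 and 0.16, and the base chaperones 0.32, -0.01 and 0.04. In the core, the alpha ring had 0.25, 0.11 and 0.10 and the beta ring 0.19, 0.11 and 0.07. Across all 3 replicate numbers, 22 of 35 members were higher in shCxxc5 (all genes 19%) and 0 were lower (all genes 22.4%). No test was made of the difference between core and cap, since the members are not replicates and there are only 3 pairs.

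**Figure D1:**
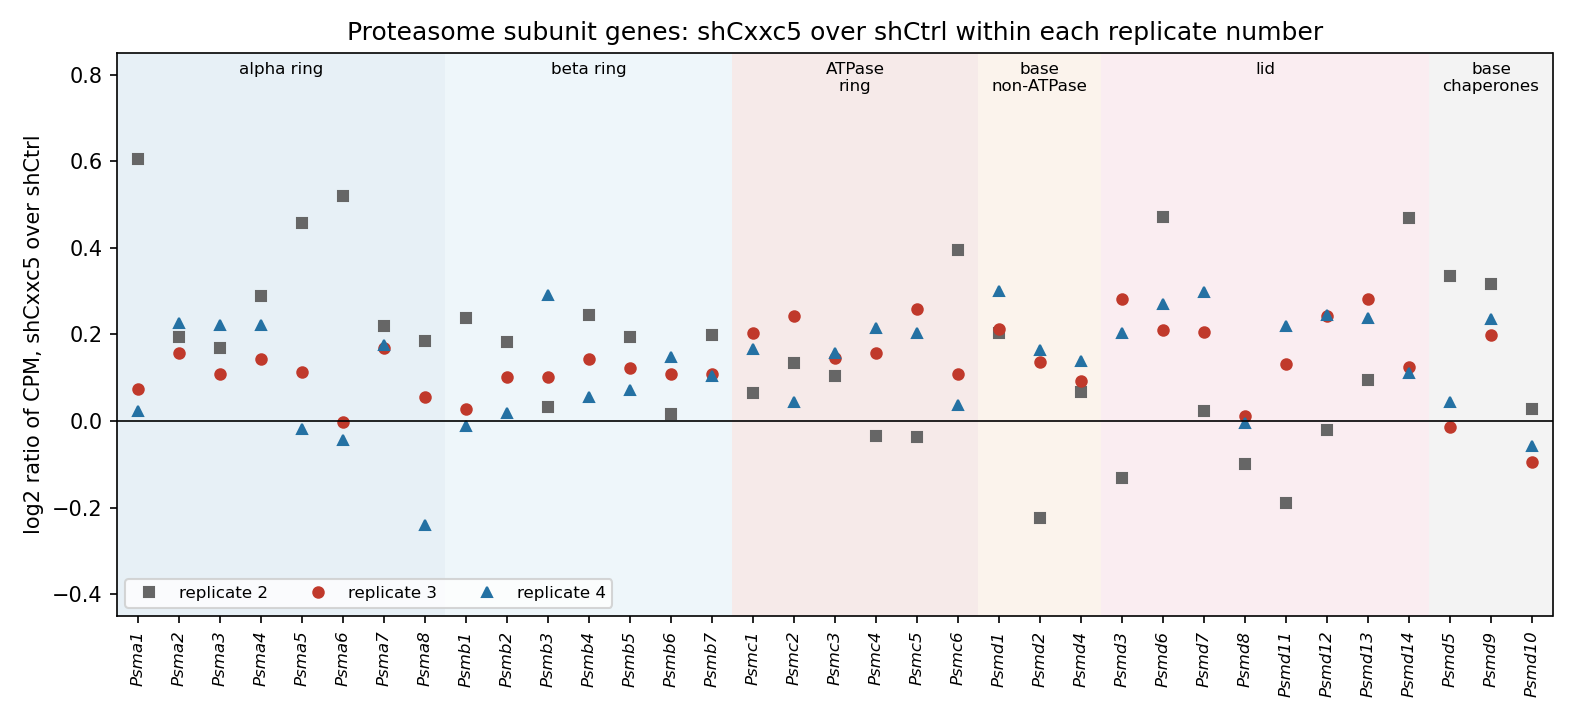
Log2 ratio of CPM, shCxxc5 over shCtrl (y axis), for each of the 35 measured members (x axis, grouped by their place in the proteasome) within replicate number 2 (squares), 3 (circles) and 4 (triangles). Squares lie above 0 for all 15 core members, while for the lid circles and triangles have medians of 0.21 and 0.23 and squares a median of 0.00.

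Over all 6 libraries no member passed the test for a difference between shCxxc5 and shCtrl. By edgeR's quasi-likelihood test 0 of 35 members had an adjusted p under 0.05, as did 0% of the 14637 genes tested. limma-voom also called 0 members (0% of genes), and so did DESeq2 (0.0345% of genes higher and 0.0967% lower). Cxxc5 itself, at an edgeR log2 fold change of -2.25, was called lower by DESeq2 but not by edgeR or limma-voom. A missing call over all 6 libraries thus says little about changes as small as those of the members. At an unadjusted p under 0.05 edgeR had 3 members higher, Psmd1, Psmd6 and Psmd9, and 0 lower, against 1.78% of genes higher and 2.15% lower. The same count was 3 with limma-voom (1.8% and 2.18% of genes) and 4 with DESeq2 (2.05% and 2.24%), all higher. With the replicate number as a block edgeR called 0 members as well (0% of genes), and 7 were higher at an unadjusted p under 0.05, where 5.18% of genes were higher and 7.09% lower. The fitted log2 fold change was above 0 for 32 of 35 members, with a median of 0.14, against -0.02 over all genes. The groups did not overlap for 7 members, Psmb5, Psmc1, Psmc3, Psmd1, Psmd4, Psmd6 and Psmd9, each higher in shCxxc5. That is 7 of 35, where 6.72% of all genes did not overlap and were higher, and 0 of 35 where 6.35% were lower.

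In replicates 3 and 4, with 2 libraries a group, the cap subunit genes were mostly higher in shCxxc5 and no member was called lower. Rose and fell here mean an adjusted p under 0.05. By edgeR 22 of 35 members rose, 16 of 20 in the cap and 6 of 15 in the core, and 0 fell, where 11% of the 14193 genes tested rose and 9% fell. The members were not set against genes of like expression, and the part of their level in these counts was not tested. By group, 7 of 8 lid, 5 of 6 ATPase, 3 of 3 other base and 1 of 3 base chaperone genes rose, against 3 of 8 alpha and 3 of 7 beta genes. Sizes were small: the median log2 fold change was 0.18 for the cap and 0.11 for the core, against -0.003 over all genes, and 0.27, a rise of 20.3%, was the largest. The members' groups did not overlap, with shCxxc5 higher, for 28 of 35, where 27.8% of all genes did so, and with shCxxc5 lower for Psma6 and Psmd10, where 29.4% did. The count was 13 with DESeq2 (10 cap, 3 core; 6.72% of its genes rose and 5.1% fell), 14 without shCxxc5 replicate 4 (12 cap, 2 core; 6.51% of genes rose) and 13 without shCtrl replicate 3 (10 cap, 3 core; 5.61% of genes rose). Leaving out 1 of the 4 libraries leaves a group with 1 library, which is assumed to vary like the pair of the other group. It was 15 with total-count scaling (12 cap, 3 core), under which 1120 genes rose and 1606 fell in all, against 1555 and 1278 with TMM, and 0 members fell in any of these. In all 11 alternatives 9 cap genes (Psmc3, Psmc5, Psmd1, Psmd2, Psmd3, Psmd6, Psmd7, Psmd12 and Psmd13) and 2 core genes (Psma2 and Psma7) kept their call, and 4 of these alternatives are such fits with 1 library left out.

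**Figure D2:**
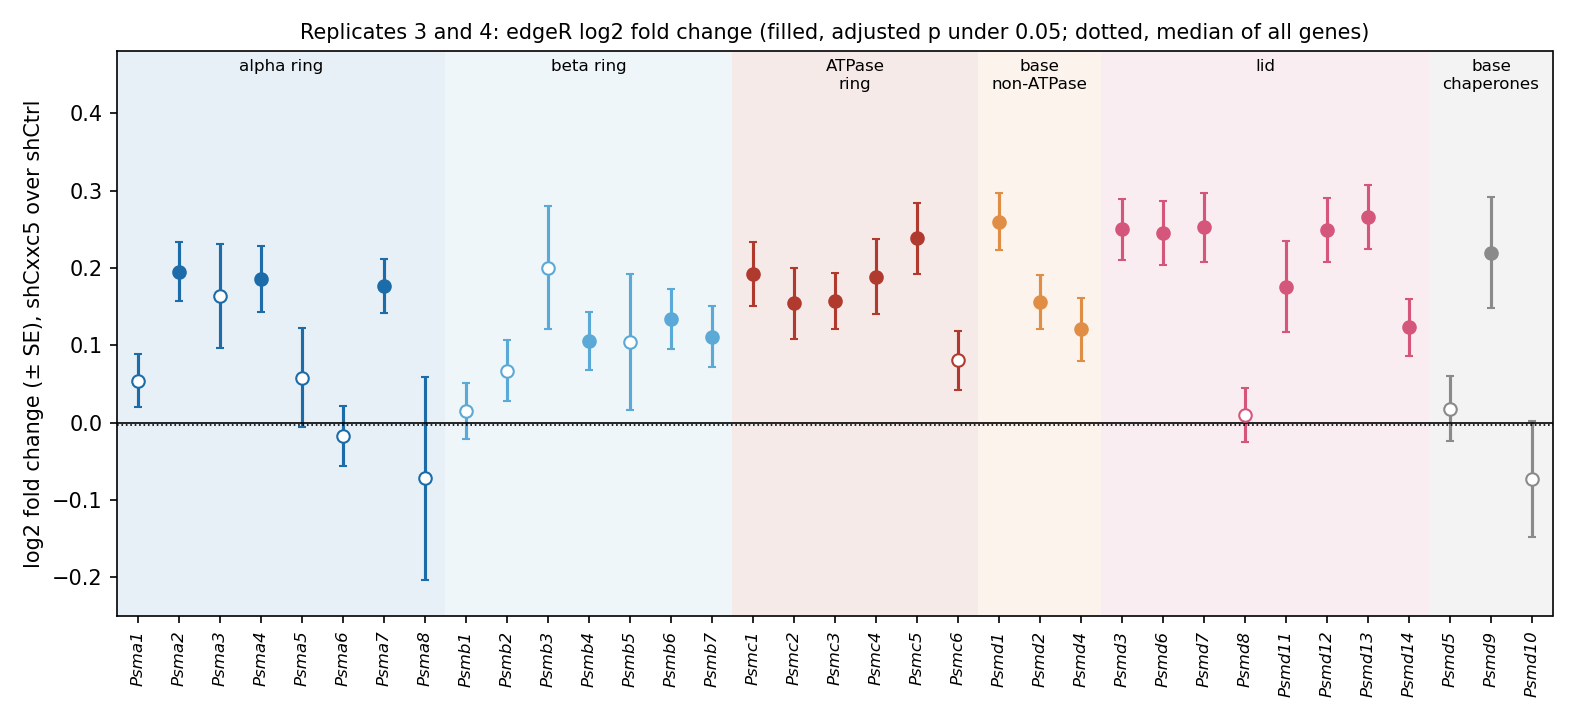
Fitted edgeR log2 fold change, shCxxc5 over shCtrl, in replicates 3 and 4 (y axis, points with ± SE, 2 libraries per group) for the 35 measured members by group (x axis); filled points have an adjusted p under 0.05. Filled points make up 16 of 20 cap members and 6 of 15 core members, and the lid holds 7 filled points of 8.

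The lid, whose subunits scaffold and carry the deubiquitinase, had a median log2 fold change of 0.25 in replicates 3 and 4. Psmd13 (ENSMUSG00000025487, chr7:140881968-140898643, plus strand), a lid scaffold subunit, had 122, 158 and 157 CPM in shCxxc5, against 114, 130 and 133 CPM in shCtrl. The shCxxc5 library was higher at each replicate number, but shCxxc5 replicate 2 lay below both shCtrl replicates 3 and 4. In replicates 3 and 4 it rose by 0.27 ± 0.04 (log2, SE; edgeR adjusted p = 2.34e-05). Psmd6 (ENSMUSG00000021737, chr14:14112174-14120984, minus strand), another scaffold subunit, had 156, 164 and 172 CPM in shCxxc5, against 113, 142 and 143 CPM in shCtrl. All 3 shCxxc5 libraries were above all 3 shCtrl libraries. Its log2 fold change was 0.25 ± 0.04 in replicates 3 and 4 (edgeR adjusted p = 7.28e-05) and 0.31 ± 0.12 over all 6 libraries (adjusted p = 0.94, unadjusted 0.0354).

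Psmd3 (ENSMUSG00000017221, chr11:98682554-98695979, plus strand), also of the lid scaffold, had 198, 213 and 209 CPM in shCxxc5, against 217, 175 and 181 CPM in shCtrl. Replicate 2 ran the other way from replicates 3 and 4, with the shCtrl library the highest of the 6. It rose by 0.25 ± 0.04 in replicates 3 and 4 (edgeR adjusted p = 2.54e-05), against 0.11 ± 0.11 over all 6 libraries, which did not pass (adjusted p = 0.94). Psmd14 (ENSMUSG00000026914, chr2:61711694-61800376, plus strand), the deubiquitinase of the lid, had 193, 246 and 244 CPM in shCxxc5, against 139, 225 and 226 CPM in shCtrl. The shCtrl replicate 2 library was the lowest, and the shCxxc5 replicate 2 library was below shCtrl replicates 3 and 4. It rose by 0.12 ± 0.04 in replicates 3 and 4 (edgeR adjusted p = 0.0168), a call lost with DESeq2 (adjusted p = 0.0898), with total-count scaling (0.0673) and when any 1 of the 4 libraries was left out (edgeR adjusted p between 0.0537 and 0.132). Of the other lid genes Psmd7, Psmd12 and Psmd11 rose by 0.25, 0.25 and 0.18, and Psmd8, at 0.01, did not pass. The Psmd11 call was lost with DESeq2 (adjusted p = 0.185), with total-count scaling (0.0752) and when any 1 of the 4 libraries was left out (edgeR adjusted p between 0.0829 and 0.176). Of the principal Psmd11 transcript 46.3% is near-identical to transcripts of other genes, so its counts are uncertain.

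In the base, the non-ATPase subunits hold the sites to which ubiquitin chains and delivery proteins bind. Psmd1 (ENSMUSG00000026229, chr1:86064387-86139151, plus strand), a large scaffold of the base, had 284, 311 and 311 CPM in shCxxc5, against 247, 268 and 252 CPM in shCtrl. Every shCxxc5 library was above every shCtrl library, with log2 ratios of 0.20, 0.21 and 0.30 in replicates 2, 3 and 4. It rose by 0.26 ± 0.04 in replicates 3 and 4 (edgeR adjusted p = 6.66e-06) and had a log2 fold change of 0.24 ± 0.08 over all 6 libraries, which did not pass (adjusted p = 0.94, unadjusted 0.0258). Psmd4 (ENSMUSG00000005625, chr3:95032694-95042614, minus strand), a ubiquitin receptor, had 192, 191 and 202 CPM in shCxxc5, against 183, 179 and 183 CPM in shCtrl. These groups did not overlap either, although they lay closer together. It rose by 0.12 ± 0.04 in replicates 3 and 4 (edgeR adjusted p = 0.0345), and the call was lost with DESeq2 (adjusted p = 0.16), with total-count scaling (0.108) and without shCxxc5 replicate 4 (0.368), shCtrl replicate 3 (0.239) or shCtrl replicate 4 (0.0682). Psmd2 (ENSMUSG00000006998, chr16:20651652-20663414, plus strand), the other large base scaffold, had 279, 308 and 311 CPM in shCxxc5, against 325, 280 and 277 CPM in shCtrl. The shCtrl replicate 2 library was the highest of the 6, so the groups overlapped. It rose by 0.16 ± 0.04 in replicates 3 and 4 (edgeR adjusted p = 0.00189). Of its principal transcript 98.2% is near-identical (at least 95% over at least 50 bases) to a transcript of another gene, so its counts are uncertain.

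The ATPase ring, which unfolds the substrate and feeds it into the core, had a median log2 fold change of 0.17 in replicates 3 and 4. Psmc5 (ENSMUSG00000020708, chr11:106256154-106263120, plus strand) had 87.8, 110 and 108 CPM in shCxxc5, against 90.1, 91.9 and 94.1 CPM in shCtrl. Only the shCxxc5 libraries of replicates 3 and 4 stood above the rest, and shCxxc5 replicate 2 was the lowest of the 6. It rose by 0.24 ± 0.05 in replicates 3 and 4 (edgeR adjusted p = 0.000349). Psmc3 (ENSMUSG00000002102, chr2:91054009-91066369, plus strand) had 247, 254 and 258 CPM in shCxxc5, against 230, 229 and 231 CPM in shCtrl. All 3 shCxxc5 libraries were above all 3 shCtrl libraries, and it rose by 0.16 ± 0.04 in replicates 3 and 4 (edgeR adjusted p = 0.00252). Psmc1 (ENSMUSG00000021178, chr12:100110154-100123405, plus strand) had 150, 160 and 162 CPM in shCxxc5, against 143, 139 and 144 CPM in shCtrl. Its groups did not overlap, and it rose by 0.19 ± 0.04 in replicates 3 and 4 (edgeR adjusted p = 0.00115; 0.0511 without shCtrl replicate 3). Copies of other genes match 82% of its principal transcript, so this value is uncertain too. Psmc6 (ENSMUSG00000021832, chr14:45329788-45349705, plus strand) had 178, 213 and 210 CPM in shCxxc5, against 135, 197 and 204 CPM in shCtrl. The replicate 2 libraries were the lowest and the furthest apart. It was the 1 ATPase gene that did not pass in replicates 3 and 4, at 0.08 ± 0.04 (edgeR adjusted p = 0.148), while Psmc2 and Psmc4 rose by 0.15 and 0.19. The Psmc2 call was lost with DESeq2 (adjusted p = 0.123) and, with edgeR, without shCxxc5 replicate 3 or shCtrl replicate 3 (adjusted p = 0.229 and 0.355), and that of Psmc4 with DESeq2 (0.0574) and, with edgeR, without shCxxc5 replicate 3 or shCtrl replicate 4 (0.0573 and 0.052).

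The base assembly chaperones, which carry Psmd symbols but leave the finished proteasome, moved less evenly. Psmd9 (ENSMUSG00000029440, chr5:123169413-123250131, plus strand) had 41.5, 37.9 and 36.8 CPM in shCxxc5, against 33.3, 33.0 and 31.2 CPM in shCtrl. Its groups did not overlap, and it rose by 0.22 ± 0.07 in replicates 3 and 4 (edgeR adjusted p = 0.0297). That call was lost with DESeq2 (adjusted p = 0.186), with total-count scaling (0.0594) and when any 1 of the 4 libraries was left out (0.0684 to 0.214). Psmd5 had 154, 140 and 141 CPM in shCxxc5, against 122, 142 and 137 CPM in shCtrl, and Psmd10 had 27.3, 30.0 and 31.9 CPM in shCxxc5, against 26.8, 32.1 and 33.2 CPM in shCtrl. Psmd5 was higher in shCxxc5 replicate 2 than in the other 5 libraries, Psmd10 was lower in shCxxc5 than in shCtrl at replicates 3 and 4, and neither gene passed in replicates 3 and 4 (0.02 ± 0.04 and -0.07 ± 0.07; edgeR adjusted p = 0.826 and 0.562).

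Alpha ring genes, whose products gate the core, were all higher in shCxxc5 at replicate 2, and 3 of 8 rose in replicates 3 and 4. Psma2 (ENSMUSG00000015671, chr13:14613240-14674236, plus strand) had 184, 237 and 245 CPM in shCxxc5, against 161, 212 and 209 CPM in shCtrl. The shCxxc5 library was higher at each replicate number, with both replicate 2 libraries below the other 4. It rose by 0.20 ± 0.04 in replicates 3 and 4 (edgeR adjusted p = 0.000384). Psma7 (ENSMUSG00000027566, chr2:180036374-180042433, minus strand) had 274, 345 and 344 CPM in shCxxc5, against 235, 307 and 305 CPM in shCtrl. As with Psma2, shCxxc5 was higher at each replicate number and both replicate 2 libraries were the lowest, and it rose by 0.18 ± 0.03 in replicates 3 and 4 (edgeR adjusted p = 0.000416). Psma4 (ENSMUSG00000032301, chr9:54950790-54958030, plus strand) had 121, 149 and 157 CPM in shCxxc5, against 99.0, 135 and 135 CPM in shCtrl. It was higher in shCxxc5 at each replicate number and rose by 0.19 ± 0.04 in replicates 3 and 4 (edgeR adjusted p = 0.00208; 0.0675 without shCxxc5 replicate 4). Psma3 had 39.8, 43.4 and 44.3 CPM in shCxxc5, against 35.4, 40.2 and 38.0 CPM in shCtrl. Its groups overlapped, with shCxxc5 replicate 2 below shCtrl replicate 3, and its 0.16 ± 0.07 did not pass in replicates 3 and 4 (edgeR adjusted p = 0.0852). Near-identical copies cover 66.9% of the Psma4, 30.1% of the Psma3 and 76.5% of the Psma5 principal transcript. The other alpha genes, Psma1, Psma5, Psma6 and Psma8, lay between -0.07 and 0.06 and did not pass.

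Beta ring genes include the 3 constitutive active-site subunits Psmb6, Psmb7 and Psmb5, with caspase-like, trypsin-like and chymotrypsin-like activity in this order. Psmb6 (ENSMUSG00000018286, chr11:70525367-70527858, plus strand) had 162, 226 and 237 CPM in shCxxc5, against 160, 209 and 214 CPM in shCtrl. The replicate 2 libraries were nearly equal and well below the other 4, in which the shCxxc5 libraries were higher. It rose by 0.13 ± 0.04 in replicates 3 and 4 (edgeR adjusted p = 0.014), a call lost with DESeq2 (adjusted p = 0.0808), with total-count scaling (0.0522) and without shCxxc5 replicate 4 (0.228) or shCtrl replicate 3 (0.157). Psmb7 (ENSMUSG00000026750, chr2:38588036-38644087, minus strand) had 145, 178 and 178 CPM in shCxxc5, against 127, 165 and 166 CPM in shCtrl. It was higher in shCxxc5 at each replicate number and rose by 0.11 ± 0.04 in replicates 3 and 4 (edgeR adjusted p = 0.0455), but kept this call in 3 of 11 alternatives and lost it when any 1 of the 4 libraries was left out (0.0993 to 0.196). Psmb5 (ENSMUSG00000022193, chr14:54614119-54618022, minus strand) had 20.6, 22.3 and 21.5 CPM in shCxxc5, against 18.0, 20.5 and 20.4 CPM in shCtrl. Its groups did not overlap, but the 0.10 ± 0.09 in replicates 3 and 4 did not pass (edgeR adjusted p = 0.456), and copies cover 88.4% of its transcript. Of the structural beta subunits, Psmb4 had 260, 301 and 301 CPM in shCxxc5, against 219, 273 and 290 CPM in shCtrl. Both replicate 2 libraries were the lowest, and shCxxc5 was higher at each replicate number. It rose by 0.11 ± 0.04 in replicates 3 and 4 (edgeR adjusted p = 0.0428), a call kept in 4 of 11 alternatives and lost without shCxxc5 replicate 3 (0.196), shCxxc5 replicate 4 (0.167) or shCtrl replicate 3 (0.405). Psmb3 had 37.7, 35.5 and 42.7 CPM in shCxxc5, against 36.9, 33.1 and 34.9 CPM in shCtrl. Its groups overlapped, with shCxxc5 replicate 4 the highest of the 6 libraries, and its 0.20 ± 0.08 did not pass (edgeR adjusted p = 0.0763; copies cover 80.7% of its transcript). Psmb1 and Psmb2 did not pass either, at 0.02 and 0.07.

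**Figure D3:**
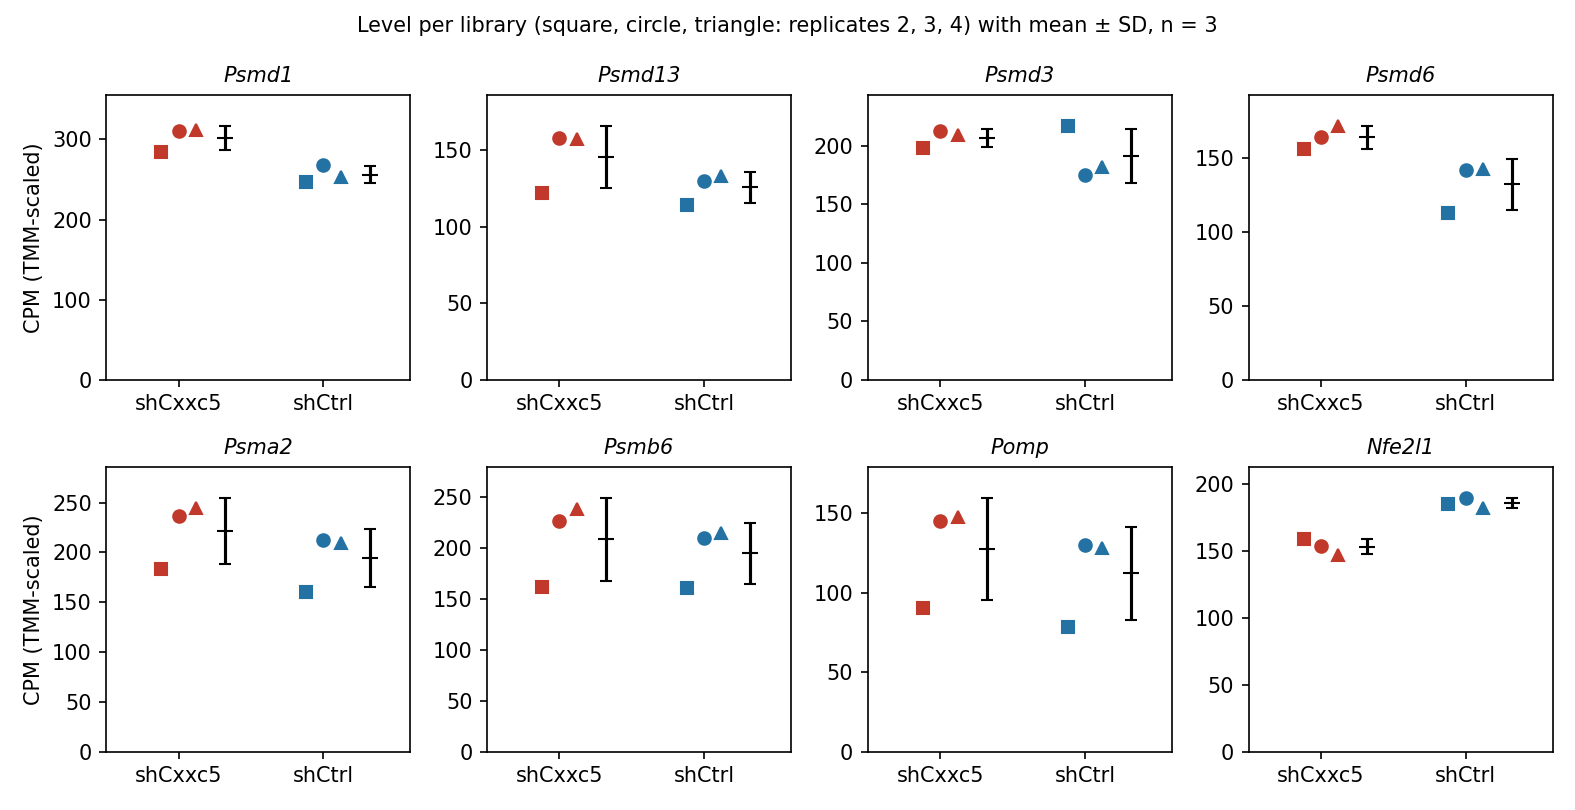
CPM (y axis, from 0) in each shCxxc5 and shCtrl library for 6 members and for Pomp and Nfe2l1, with squares, circles and triangles for replicates 2, 3 and 4 and the bar at the mean ± SD of the 3 libraries. Psmd1 and Psmd6 do not overlap between the groups, Psmd3 has its highest value in shCtrl replicate 2, and Nfe2l1 is lower in all 3 shCxxc5 libraries.

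Exons of other genes on the same strand overlap those of Psmd1 (301 bases) and Psmb5 (109), and no strand setting would separate their reads. Exons of other genes on the opposite strand overlap those of Psmd9 (1849 bases), Psmb7 (405), Psmd13 (342), Psmd1 (252), Psmc3 (215), Psma4 (114), Psma5 (60) and Psmd3 (17). The kit was stranded, but whether the counting used strand is not stated, and reads of such partners cannot be told apart from the members' reads.

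The promoters were read for 2 motifs known from proteasome genes, because many members were higher together in replicates 3 and 4. These were CCAAT, bound by NF-Y, and TGACNNNGC, the core of the antioxidant response element that NRF1-type factors bind, each searched on both strands; neither contains the other. A promoter was the 250 bases before and 50 after the most upstream RefSeq start (GRCm38.p6), and 29 members were read. Psmb1, Psmb2, Psmb7, Psmc3, Psmd3 and Psmd7 had no promoter entry, and Psma8 was left out. CCAAT was found in 12 of 29 (41.4%), in 7 of 12 core and 5 of 17 cap promoters, against 38% of all 27025 promoters. TGACNNNGC was found in 5 of 29 (17.2%), those of Psmb5, Psmb6, Psmc6, Psmd9 and Psmd12, against 12.4% of all promoters. The median number of CG dinucleotides was 19 per member promoter, against 7 over all promoters, which include those of genes not measured here. The members were not set against other genes expressed in these cells. CXXC domains are known to bind unmethylated CG, but neither methylation nor binding was measured. The 250 bases before the start are shown 5′ to 3′, motifs in capitals, for the base gene Psmd1 and the alpha gene Psma2, which rose in every alternative, and for the lid gene Psmd12 and the active-site gene Psmb6, which hold the response element core. They were chosen after the values were seen.
Psmd1 (chr1:86064369-86064618, plus strand): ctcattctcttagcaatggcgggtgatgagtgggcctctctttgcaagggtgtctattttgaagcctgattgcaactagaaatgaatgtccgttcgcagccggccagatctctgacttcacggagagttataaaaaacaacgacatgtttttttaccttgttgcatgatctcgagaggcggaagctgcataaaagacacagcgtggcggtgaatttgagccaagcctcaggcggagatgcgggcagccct
Psmd12 (chr11:107479278-107479527, plus strand): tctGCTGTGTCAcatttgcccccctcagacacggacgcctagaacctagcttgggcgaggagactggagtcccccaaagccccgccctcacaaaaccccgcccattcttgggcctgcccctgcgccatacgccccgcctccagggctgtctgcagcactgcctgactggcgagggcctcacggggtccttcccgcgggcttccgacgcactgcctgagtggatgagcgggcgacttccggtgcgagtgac
Psma2 (chr13:14612992-14613241, plus strand): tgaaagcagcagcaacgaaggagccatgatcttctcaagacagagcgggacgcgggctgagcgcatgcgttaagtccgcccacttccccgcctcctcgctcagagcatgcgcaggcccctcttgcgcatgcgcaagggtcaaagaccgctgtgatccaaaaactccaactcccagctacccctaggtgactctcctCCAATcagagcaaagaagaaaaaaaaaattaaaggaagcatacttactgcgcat
Psmb6 (chr11:70525107-70525356, plus strand): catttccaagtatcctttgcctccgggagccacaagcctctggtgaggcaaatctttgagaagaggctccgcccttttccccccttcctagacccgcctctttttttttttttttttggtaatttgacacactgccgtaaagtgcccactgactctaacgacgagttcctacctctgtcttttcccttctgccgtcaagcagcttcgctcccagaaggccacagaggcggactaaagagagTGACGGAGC

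The Psmd1 stretch holds neither motif, that of Psma2 holds CCAAT, and those of Psmd12 and Psmb6 hold TGACNNNGC, on the opposite strand in Psmd12. Among the 5 holders of TGACNNNGC, Psmb6, Psmd9 and Psmd12 rose in replicates 3 and 4 and Psmb5 and Psmc6 did not pass. A match describes letters in this window only.

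Other genes of the pathway were taken from lists given with the methods, and are described here in replicates 3 and 4, where 11% of all genes rose and 9% fell. Of 5 core assembly chaperones 2 rose and 0 fell, namely Pomp, which matures the beta rings, and Psmg3. Pomp had 90.3, 145 and 147 CPM in shCxxc5, against 78.7, 130 and 128 CPM in shCtrl, with both replicate 2 libraries low, and rose by 0.18 ± 0.04 (edgeR adjusted p = 0.00194). Psmg3 rose by 0.30 ± 0.08 (edgeR adjusted p = 0.00581; 0.0773 with DESeq2, 0.127 without shCxxc5 replicate 3 and 0.0944 without shCtrl replicate 3). Of 4 further cap subunits and cap-bound deubiquitinases 3 rose and 0 fell: Sem1 by 0.20 ± 0.04, Uchl5 by 0.20 ± 0.05 and Usp14 by 0.12 ± 0.04 (edgeR adjusted p = 0.00119, 0.00381 and 0.0337). The Usp14 call was kept in 4 of 11 alternatives and lost when any 1 library was left out (0.0769 to 0.274), and Sem1 and Uchl5 lost theirs only without shCxxc5 replicate 4 (0.0816 and 0.0954). Of the activators and the inhibitor 3 of 5 rose and 0 fell, among them Psme2 by 0.19 ± 0.05 and Psme3 by 0.13 ± 0.04 (edgeR adjusted p = 0.014 and 0.0288), both lost with DESeq2 (0.108 and 0.137) and Psme3 also with total-count scaling (0.0918), while Psme4 was at -0.01. Psme2 also lost its call without shCxxc5 replicate 4, shCtrl replicate 3 or shCtrl replicate 4 (0.151, 0.0676 and 0.0803), and Psme3 without shCxxc5 replicate 3, shCxxc5 replicate 4 or shCtrl replicate 4 (0.152, 0.115 and 0.303). Of the 13 genes of ubiquitin and its delivery 4 rose and 0 fell, among them the unfoldase Vcp by 0.22 ± 0.04, its partner Nploc4 by 0.19 ± 0.04 and the ubiquitin fusion gene Rps27a by 0.27 ± 0.09 (edgeR adjusted p = 0.000267, 0.00305 and 0.0353). Leaving out shCxxc5 replicate 3 or shCtrl replicate 4 ended the Nploc4 call (0.105 and 0.07), and leaving out any 1 of the 4 libraries ended that of Rps27a (0.0811 to 0.23), as did DESeq2 (0.23) and total-count scaling (0.06). Copies of other genes cover 73% of the Vcp, 59.8% of the Rps27a, 82.5% of the Psme2 and 27% of the Psmg3 transcript. Exons of other genes on the same strand also overlap those of Psmg3 (280 bases).

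Of 9 genes that control the transcription of proteasome subunits, 1 rose and 2 fell in replicates 3 and 4, where 11% of all genes rose and 9% fell. Nfe2l1, which encodes NRF1, had 159, 154 and 147 CPM in shCxxc5, against 185, 190 and 182 CPM in shCtrl. All 3 shCxxc5 libraries were below all 3 shCtrl libraries. It fell by 0.30 ± 0.04 on the log2 scale in replicates 3 and 4 (edgeR adjusted p = 3.44e-06), with the call kept in all 11 alternatives, while over all 6 libraries its -0.28 ± 0.07 did not pass (adjusted p = 0.94, unadjusted 0.00873). Ddi2, the protease that activates NRF1, rose by 0.17 ± 0.05 (edgeR adjusted p = 0.0103; 0.0966 with DESeq2, 0.145 without shCxxc5 replicate 3, 0.0569 without shCtrl replicate 3 and 0.0602 without shCtrl replicate 4), and Ngly1, which removes glycans from NRF1 and was picked after its value was seen, fell by 0.21 ± 0.06 (edgeR adjusted p = 0.0154; 0.122 with DESeq2, 0.236 without shCxxc5 replicate 3, 0.077 without shCtrl replicate 3 and 0.0664 without shCtrl replicate 4). The NF-Y subunit gene Nfyc did not pass, at 0.16 ± 0.10 (adjusted p = 0.252). Exons of other genes on the same strand overlap those of Ddi2 (1749 bases), and copies cover 18.3% of the Ddi2 and 50.2% of the Nfyc transcript, so their counts are uncertain.

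The libraries numbered 2 had lower core levels than the rest in both groups. This split was chosen with it known that these libraries stand apart. Its p-values, here and for the immunoproteasome genes, are therefore not those of a comparison set in advance. Over both groups, 18.7% of the 14637 genes tested were called lower in replicate 2 than in replicates 3 and 4, and 17.7% higher. Among the members 19 of 35 were called lower and 0 higher. These were 12 of 15 core genes and 7 of 20 cap genes, and the cap count was 4 without shCxxc5 replicate 3, where 12.4% of all genes were lower, and 11 without shCtrl replicate 2, where 26.3% were. The median log2 difference, replicate 2 over replicates 3 and 4, was -0.36 for the core, -0.46 for its alpha ring and -0.15 for the cap, against -0.004 over all genes. With total-count scaling 3139 of all genes were called higher and 2119 lower, against 2588 and 2742 with TMM. Of the members 18 were then called lower and 0 higher. Psmb6, for instance, averaged 161 ± 1.26 CPM in the 2 replicate 2 libraries and 222 ± 12.6 CPM in the 4 others (SD), and was lower by a log2 difference of -0.46 ± 0.06 (edgeR adjusted p = 0.00198). Psma2 was lower by -0.39 ± 0.05 and Psmd14 by -0.51 ± 0.09 (edgeR adjusted p = 0.00218 and 0.00605), and Psma1, picked after its value was seen, by -0.80 ± 0.12 (adjusted p = 0.00482). Psmd1, Psmd2 and Psmd4 of the base did not pass, at -0.10, 0.04 and -0.01.

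The immunoproteasome genes Psmb8, Psmb9 and Psmb10, which replace Psmb5, Psmb6 and Psmb7 in cells exposed to interferon, were measured beside them. All 3 were lower in replicate 2, by log2 differences of -1.25 ± 0.07, -1.42 ± 0.06 and -1.24 ± 0.06 (edgeR adjusted p = 0.000104, 5.12e-05 and 5.95e-05). Their summed CPM over that of the 3 constitutive active-site genes was 1.09, 1.90 and 1.90 in shCxxc5, against 1.03, 2.00 and 2.05 in shCtrl. Copies of other genes cover 88.4% of the Psmb5 transcript and 0% of those of Psmb8, Psmb9 and Psmb10, so the size of this ratio is uncertain. Between shCxxc5 and shCtrl in replicates 3 and 4, Psmb10 rose by 0.15 ± 0.04 (edgeR adjusted p = 0.0121; 0.0895 with DESeq2, 0.136 without shCxxc5 replicate 4 and 0.235 without shCtrl replicate 3), and Psmb8 and Psmb9 did not pass, at 0.02 and -0.07. So 1 of 3 immunoproteasome genes rose and 0 fell, where 11% of all genes rose and 9% fell.

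Markers of other cells and of interferon moved with the replicate 2 libraries. Summed CPM of 8 interferon response genes was 192, 1326 and 1317 in shCxxc5, against 220, 1402 and 1391 in shCtrl, and all 8 were lower in replicate 2. Summed CPM of 10 megakaryocyte markers was 1616, 354 and 345 in shCxxc5, against 6699, 531 and 526 in shCtrl, and all 10 were higher in replicate 2. Granulocyte and monocyte markers summed to 5741, 1198 and 1206 CPM in shCxxc5, against 787, 1012 and 1054 CPM in shCtrl, with 1 of 8 called higher and 1 lower in replicate 2. Mpo alone held 2911 CPM in shCxxc5 replicate 2, against 360 CPM in shCtrl replicate 2, while Csf1r was lower in shCxxc5 (25.9 against 47.2 CPM). In replicates 3 and 4 edgeR called 3 of these 8 markers higher in shCxxc5 and 3 lower (median log2 fold change -0.05). Erythroid markers summed to 1094, 540 and 514 CPM in shCxxc5, against 564, 437 and 458 CPM in shCtrl, and 6 of the 7 tested were higher in replicate 2. Mast cell and basophil markers summed to 1416, 359 and 343 CPM in shCxxc5, against 243, 335 and 346 CPM in shCtrl, with 2 of 5 higher in replicate 2. B cell and T cell markers each summed to at most 2.70 CPM in any library, and Cd3e was at 0 in all 6. Between shCxxc5 and shCtrl in replicates 3 and 4, edgeR called 0 of 9 megakaryocyte markers higher and 4 lower (median log2 fold change -0.56). It called 1 of 7 erythroid markers higher and 3 lower (-0.48), and 3 of 5 mast cell and basophil markers higher and 1 lower (0.50). LSK markers had 3 of 10 higher and 2 lower (0.04), where 11% of all genes rose and 9% fell. The part of these markers in the members' differences between replicates was not tested, nor was that of the shifts between shCxxc5 and shCtrl within replicate 2 or within replicates 3 and 4.

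**Figure D4:**
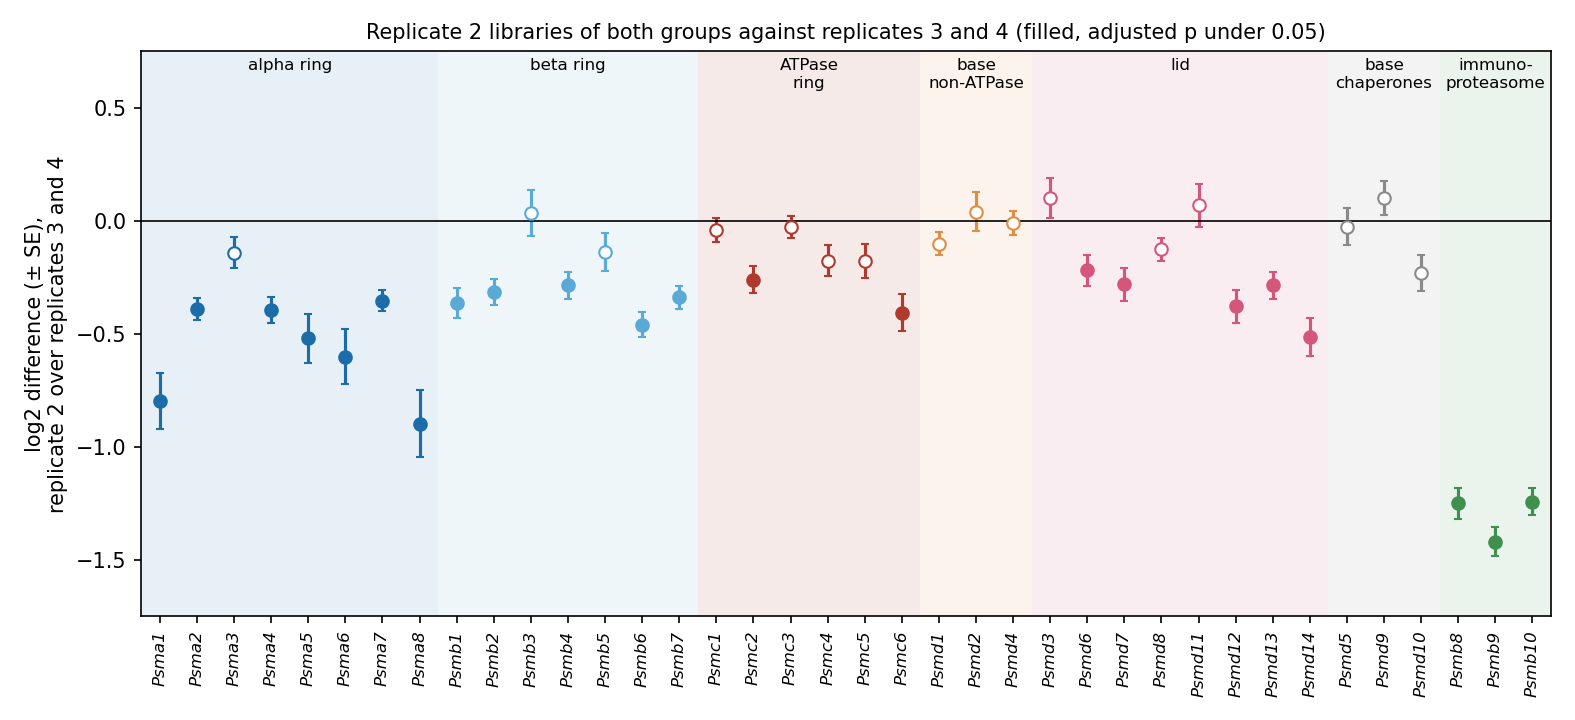
Log2 difference of the replicate 2 libraries over those of replicates 3 and 4, both groups together (y axis, edgeR estimate ± SE), for the 35 measured members and the 3 immunoproteasome genes (x axis); filled points have an adjusted p under 0.05. Filled points below 0 make up 12 of 15 core and 7 of 20 cap members, and the immunoproteasome genes lie between -1.42 and -1.24.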

How the data were processed

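Raw read counts per gene were deposited by the authors as 1 table of 49671 Ensembl identifiers. Per the submitters' processing notes, STAR 2.5.2b, featureCounts 1.5.1 and DESeq2 were used with GRCm38; neither the annotation release nor a strand setting is stated. Per the labels' protocols, RNA of 20000 to 50000 sorted cells went into a stranded mRNA kit, and a single-read or paired-end run is named without saying which. Symbols and coordinates came from GENCODE M21 (GRCm38), which matched 49412 identifiers; the other 259 held 0.0557% of the counts.

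Counts were tested with edgeR 4.0.16 in R 4.3.3 (TMM scaling, filterByExpr, robust quasi-likelihood test, Benjamini-Hochberg threshold of 0.05): shCxxc5 over shCtrl in all 6 libraries and in replicates 3 and 4, and replicate 2 over replicates 3 and 4 with the group as a term. Every fit covered all genes. The standard error (SE) is the absolute log2 fold change over the square root of F. Log2 CPM used a prior count of 2. Copies were found with blastn (at least 95% identity over at least 50 bases). The code was tested on simulated data.

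Members were described by place in the proteasome. Full values were given for the 2 genes per group of smallest unadjusted p in each shCxxc5 comparison, the 1 in the replicate 2 comparison, and Psmb5, Psmb6 and Psmb7. The other lists were immunoproteasome (3 genes), activators and inhibitor (5), core assembly chaperones (5), further cap subunits and deubiquitinases (4), transcriptional control (9), and ubiquitin and delivery (13), with their 2 genes of smallest unadjusted p in each shCxxc5 comparison. Other genes named, among them Psma1, Psma5, Psma6, Psma8, Psmb1, Psmb2, Psmc2, Psmc4, Psmd7, Psmd8, Psmd11, Psmd12 and Ngly1, were picked after their values were seen. Members, lists, the fit on replicates 3 and 4 and that of replicate 2 against them were chosen with earlier results of these data known.

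Same-numbered libraries deviated together from their group means (correlations across genes of 0.670, 0.554 and 0.489). Crossing numbers 3 and 4 gave 0.489 and 0.475, so a pairing of 3 with 3 or of 4 with 4 is not shown. Replicate 2 stood apart in both groups, which by itself makes the deviations of replicates 3 and 4 alike. The main fits had no replicate block. Alternatives were DESeq2 1.42.0, limma-voom 3.58.1, DESeq2 size factors or total counts as scaling, no filter or CPM of at least 1 in 3 libraries, no robust fitting, the replicate block, and leaving out each library.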

Additional observations from a re-analysis of the deposited data

Results flagged for a closer look

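The shCxxc5 effect differed between replicate 2 and replicates 3 and 4 for 15 of 35 members by the interaction term in edgeR, where 16.8% of the 14637 genes tested had a larger effect in replicate 2 and 19% a smaller one. Only replicates 3 and 4 give the spread for this term (2 residual degrees of freedom), and the replicate 2 libraries are assumed to vary alike. The effect was larger in replicate 2 for 8 of 35 members, a share not far above the 16.8% of all genes. In the alpha ring these were Psma1, Psma6 and Psma5, with differences of the log2 effect of 0.56, 0.54 and 0.41, and in the beta ring Psmb1 with 0.23. In the cap they were Psmd14 (0.35), Psmd5 (0.32), Psmc6 (0.32) and Psmd6 (0.23). Copies of other genes cover 76.5% of the Psma5 transcript, so its value is uncertain.

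Against the 19% of all genes, the effect was smaller in replicate 2 for 7 of 35 members, a like share that does not set the members apart. Each of these 7 was of the cap. In the lid these were Psmd3, Psmd11, Psmd12 and Psmd7, with differences of -0.38, -0.36, -0.26 and -0.22. In the base they were Psmd2 (-0.37), Psmc5 (-0.27) and Psmc4 (-0.22). With DESeq2, added after the data were seen, 6 members had a larger and 2 a smaller effect, where 9.6% of all genes had a larger and 9.3% a smaller one. The part of the marker genes that move with replicate 2 was not tested.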

How the results depend on the processing

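In all 6 libraries 0 members were called higher or lower in any alternative. With the replicate block, 0 members passed in all 6 libraries (edgeR; 7 at an unadjusted p under 0.05), and in replicates 3 and 4, where this paired fit has 1 residual degree of freedom, 23 members rose (7 core, 16 cap), against 22 without the block.

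In replicates 3 and 4, DESeq2 called 13 members higher (3 core, 10 cap) and total-count scaling 3 core members. Leaving out each library in turn gave 13 to 16 members, 2 to 5 core and 10 to 12 cap members higher, where 5.61% to 7.56% of all genes rose; each such fit has a group with 1 library, assumed to vary like the other group. In replicate 2 against replicates 3 and 4 it gave 0 to 3 members higher and 4 to 11 cap members lower, where 10.1% to 29% of all genes were higher and 10.8% to 30.4% lower. DESeq2 called 2 members with a smaller effect in replicate 2 (9.3% of its genes), against 7 with edgeR (19%). The cause was not tested.

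The sign turned for Psmd5 and for Psmb8, Psmb10, Psme2, Psme4 and Pomp, of which Psmb10, Psme2 and Pomp were called in replicates 3 and 4 and turned only in all 6 libraries, where none was called. With total-count scaling the log2 fold changes in replicates 3 and 4 were -0.00935 for Psmd5 and -0.00729 for Psmb8. Leaving out each library gave, in all 6 libraries, -0.17 to 0.45 for Psmb10, -0.28 to 0.34 for Psmb8, -0.12 to 0.45 for Psme2, -0.013 to 0.050 for Psme4 and -0.017 to 0.38 for Pomp. In replicates 3 and 4 it gave -0.00425 to 0.041 for Psmd5, -0.019 to 0.054 for Psmb8 and -0.028 to 0.0094 for Psme4. Depth was at least 15002414 counts per library; with 2 libraries a group, calls near the threshold depend on single libraries.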
